A study of Mus musculus with 12 samples.

Results

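Within the transcriptome of mouse back skin, 7 genes of the aryl hydrocarbon receptor (AHR) pathway were examined among the 18505 genes of the deposited expression table. The members were taken by symbol, and all 7 had a row: Ahr, the receptor; Arnt, its partner; Ahrr, its repressor; and the target genes Cyp1a1, Cyp1b1, Tiparp and Nqo1. The samples came from male wild-type BALB/c mice of 5 to 6 weeks, with 4 samples in each of 3 groups and all skin taken on day 10. In the control group the shaved back received petroleum jelly, a treatment that the sample labels record only as a blank handling. In the IMQ + NS group, imiquimod (IMQ) cream was applied for 6 h daily and followed by a saline (NS) dressing. IMQ is a Toll-like receptor 7 agonist that gives psoriasis-like lesions. In the IMQ + BZLF group the cream was followed by Banzhilian formula (BZLF), an external preparation of 9 medicinal materials, most of them plants. The dose of BZLF behind the sequenced samples was not given in the sources used here, and the cream and the dressing cannot be told apart in a comparison with control skin.

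AHR is a transcription factor of the basic helix-loop-helix PAS family that rests in the cytosol with HSP90 and its co-chaperones and moves to the nucleus when a ligand binds. There it pairs with ARNT and binds DNA with the core GCGTG, and Cyp1a1 is the target most often used to read out its activity. Skin meets AHR ligands as tryptophan photoproducts, microbial indoles, coal tar and plant polyphenols, and the receptor is known for roles in keratinocyte differentiation and skin inflammation. AHRR and TIPARP are induced by the receptor and restrain it. NQO1 is induced by AHR and, more strongly in many cells, by NRF2.

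Expression was given as fragments per kilobase of transcript and sequencing depth (FPKM), a level per length of transcript, which allows genes to be set side by side. The sum over all genes was 444660 to 506622 FPKM in a sample. The low values of 79 genes put the FPKM of a fragment at 0.980 to 1.04 times that of control replicate 1. These genes were kept only where their values above 0 lay close together, so they cannot show that the samples were of like depth. The paper gives a narrow range of clean data per sample, but not the number of fragments. Comparisons between groups used limma on log2(FPKM + 0.1) over the 15288 genes with a mean of at least 0.1 FPKM, with Benjamini-Hochberg adjustment over all of them, and a gene was called at an adjusted p below 0.05. All 7 members passed this filter. Skin keratinocyte markers were present in every group, with a summed level of 7 basal keratinocyte genes between 1361 and 5476 FPKM. Control replicate 2 stood apart, with a summed level of 310 FPKM over 7 hair shaft genes against 7.37 to 23.1 FPKM in the other control samples and 2888 to 5641 FPKM in the IMQ-treated samples. Signals of tissue under the skin were also higher in control samples, with 6 skeletal muscle genes summing to 3259 to 8134 FPKM against 616 to 1448 FPKM in the IMQ-treated samples. The lowest of these control sums was that of replicate 2, and the other control samples had at least 7486 FPKM. Where leaving out control replicate 2 changed a call or moved a value of a member by over 1.5 times, both values are given.

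The 7 genes lie on 6 chromosomes of the mouse genome, and their positions were read from the RefSeq annotation of GRCm38.p6, the assembly that corresponds to the mm10 build named in the submitters' processing notes. Ahr lies at chr12:35497979-35534989, Arnt at chr3:95434367-95497240 and Ahrr at chr13:74211118-74292331. Of the targets, Cyp1a1 lies at chr9:57687928-57703824, Cyp1b1 at chr17:79706940-79715061, Tiparp at chr3:65528447-65555518 and Nqo1 at chr8:107388225-107403205. All 7 are annotated as protein-coding genes.

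The 250 bases before the start of a gene were read from RefSeq (GRCm38.p6) for 6 of the 7 members. Of these windows 4 are printed here: the repressor Ahrr, the 2 cytochrome P450 genes, which moved in opposite directions in lesions, and Nqo1, which moved after BZLF. Capitals mark the AHR core GCGTG or, on the other strand, CACGC. The sequences are those of the reference strain and run 5′ to 3′ on the strand of the gene, from chr13:74292332-74292581 (minus strand) for Ahrr, chr9:57697363-57697612 (plus) for Cyp1a1, chr17:79715062-79715311 (minus) for Cyp1b1 and chr8:107403206-107403455 (minus) for Nqo1.
Ahrr: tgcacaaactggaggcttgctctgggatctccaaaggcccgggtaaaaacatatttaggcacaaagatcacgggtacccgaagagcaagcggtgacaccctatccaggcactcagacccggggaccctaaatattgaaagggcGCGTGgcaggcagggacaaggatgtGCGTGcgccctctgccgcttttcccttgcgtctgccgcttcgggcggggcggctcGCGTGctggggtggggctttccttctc
Cyp1a1: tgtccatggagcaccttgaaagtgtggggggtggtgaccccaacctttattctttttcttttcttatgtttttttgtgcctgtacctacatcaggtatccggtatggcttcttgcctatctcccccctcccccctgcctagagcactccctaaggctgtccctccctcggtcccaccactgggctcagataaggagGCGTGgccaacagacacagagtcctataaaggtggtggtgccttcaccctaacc
Cyp1b1: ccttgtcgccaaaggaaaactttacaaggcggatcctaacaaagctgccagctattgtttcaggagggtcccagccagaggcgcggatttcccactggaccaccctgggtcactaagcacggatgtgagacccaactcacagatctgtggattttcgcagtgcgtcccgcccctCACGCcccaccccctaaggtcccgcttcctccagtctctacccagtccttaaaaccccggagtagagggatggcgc
Nqo1: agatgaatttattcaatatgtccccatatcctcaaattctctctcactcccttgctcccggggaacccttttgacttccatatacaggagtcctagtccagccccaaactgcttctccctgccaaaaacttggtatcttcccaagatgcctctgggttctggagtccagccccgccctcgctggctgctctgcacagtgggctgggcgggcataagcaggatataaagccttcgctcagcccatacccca

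The core was found 3 times before Ahrr and 1 time each before Arnt, Cyp1a1, Cyp1b1 and Tiparp, on either strand. In the Nqo1 window it was not found, which says nothing of sites further away. Of 32851 windows of the same length in the RefSeq table, 28.2% held the core at least 1 time. The longer form TNGCGTG, which contains the core, was present in 4.10% of the windows and, among the members, only before Ahrr. The core of the antioxidant response element, TGACNNNGC, to which NRF2 binds, was present in 10.2% of all windows and, among the members, only before Arnt, where it occurred 2 times. The starts used for Cyp1a1 and Arnt lie inside their annotated spans, which begin further upstream. For Arnt the window ends at chr3:95434389, past the first annotated base at 95434367. The best known AHR enhancers of Cyp1a1 lie further upstream than these windows reach.

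The members were expressed at moderate to low levels and kept a wide order among themselves. In control skin the mean level fell from Arnt (16.6 FPKM) over Ahr (9.69), Cyp1a1 (8.06), Tiparp (7.04), Cyp1b1 (5.81) and Nqo1 (4.73) to Ahrr (1.15). In IMQ + NS samples Cyp1b1 stood next to Arnt, with a mean of 13.2 FPKM against 14.9 FPKM, and in IMQ + BZLF samples their means were 15.3 and 15.1 FPKM. Ahrr was the lowest of the 7 in each group. Arnt had the smallest spread between replicates, with a standard deviation of 1.33% to 6.34% of the mean, and Ahrr the widest in IMQ + BZLF samples, at 43.9%.

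**Figure D1:**
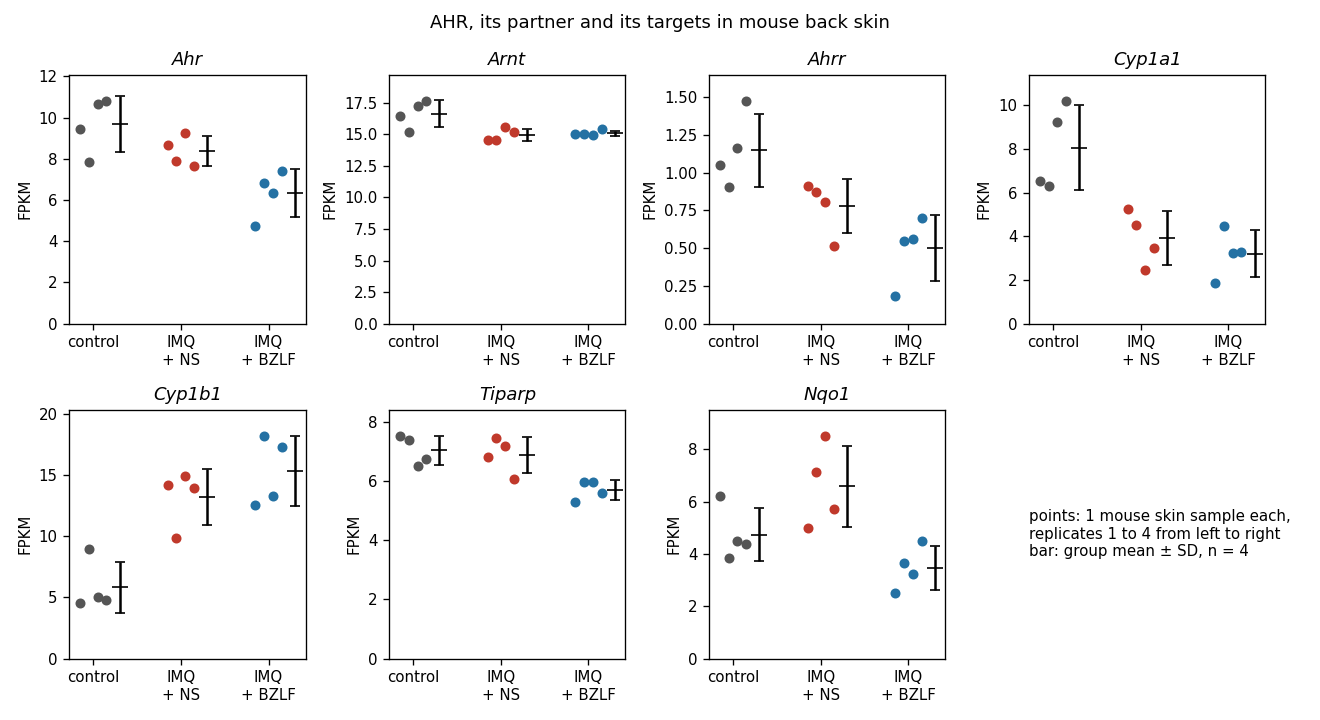
FPKM (y axis, from 0) of the 7 genes in the 3 groups (x axis). Each point is 1 skin sample, with replicates 1 to 4 from left to right, and the black bar is the group mean ± SD (n = 4). Cyp1a1 was higher in all 4 control samples than in any IMQ-treated sample, Cyp1b1 lower, and Nqo1 was highest in the IMQ + NS group.

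The first comparison asked how psoriasis-like lesions differed from normal skin. In IMQ + NS against control samples the 2 cytochrome P450 targets went opposite ways: Cyp1a1 fell to 0.487 times its control level and Cyp1b1 rose to 2.31 times. The other 5 members did not pass the test. Of the 7, 1 was called higher and 1 lower, against 29.0% of all tested genes called higher and 27.1% called lower. The median log2 fold change was -0.15 over the members and 0.05 over all genes tested.

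Cyp1a1 encodes a monooxygenase that oxidises polycyclic aromatic compounds and clears AHR ligands. It stood at 6.53, 6.30, 9.22 and 10.2 FPKM in the 4 control samples. In the IMQ + NS samples it stood at 5.27, 4.50, 2.47 and 3.48 FPKM. Every lesion sample was below every control sample, and the mean fell from 8.06 ± 1.94 (SD, n = 4) to 3.93 ± 1.22 FPKM. The log2 fold change was -1.04 (standard error 0.25, adjusted p = 0.00765 from limma). Leaving out any of the 8 samples gave values from -1.20 to -0.84, all called. The summed level of 7 sebaceous gland genes also was lower in these samples, at 104 to 231 FPKM against 250 to 379 FPKM in control samples, with 4 genes lower and 2 higher by the test. The part of this change in the Cyp1a1 result was not tested, and in bulk skin fewer cells of a type and less RNA per cell cannot be told apart.

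Cyp1b1, a related monooxygenase that is found more in stromal and vascular cells than in liver, changed in the other direction. Control samples had 4.50, 8.94, 4.99 and 4.81 FPKM. IMQ + NS samples had 14.2, 9.85, 14.9 and 13.9 FPKM. The groups did not overlap, but control replicate 2 lay close to the lowest lesion sample and far from the other controls. The mean rose from 5.81 ± 2.10 to 13.2 ± 2.28 FPKM (SD, n = 4), or by 1.21 on the log2 scale (standard error 0.23, adjusted p = 0.0022 from limma). Without control replicate 2 the log2 fold change was 1.43. Marker lists of several cell types also differed in this comparison. Of 7 fibroblast genes 6 were lower and none higher in IMQ + NS samples, with a summed level of 2652 to 3572 FPKM against 10313 to 15092 FPKM, and of 6 endothelial genes 5 were lower. All 7 hair shaft genes and all 6 neutrophil genes were higher. Control replicate 2, the control sample with the highest Cyp1b1 level, also had the highest hair shaft sum of the controls and their lowest fibroblast and endothelial sums. The part of these cell types in the Cyp1b1 result was not tested.

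Within each library the ratio of the 2 transcripts is free of scaling between samples. Cyp1b1 stood at 0.473 to 1.42 times Cyp1a1 in control samples, with the highest value in control replicate 2 and at most 0.689 in the other 3. In IMQ + NS samples the ratio ran from 2.19 to 6.04, and in IMQ + BZLF samples from 4.08 to 6.78. The control range thus lay below both IMQ-treated ranges, which overlapped each other.

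**Figure D2:**
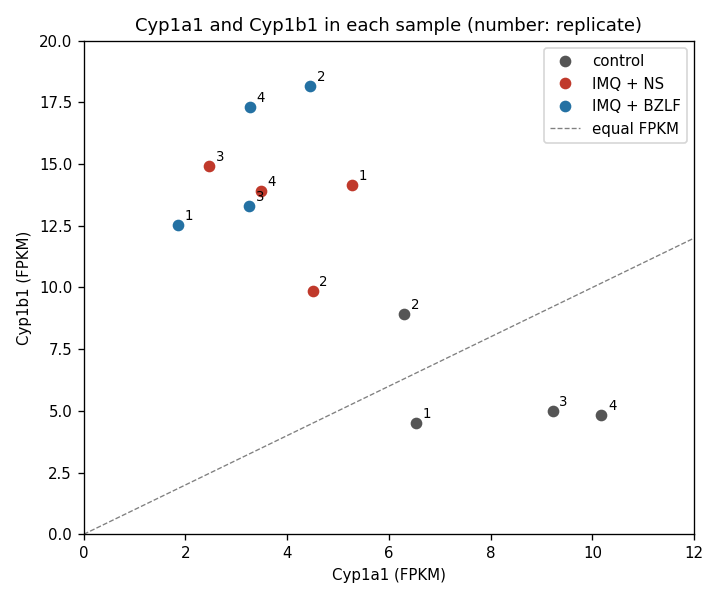
Cyp1b1 (y axis, FPKM) against Cyp1a1 (x axis, FPKM) in the 12 samples, coloured by group and numbered by replicate, with a dashed line where both are equal. Control samples 1, 3 and 4 lie below the line and control replicate 2 above it. All 8 IMQ-treated samples lie far above it, with Cyp1b1 at 2.19 to 6.78 times Cyp1a1.

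The receptor and its partner did not pass the test in lesions with all 8 samples. Ahr had 9.44, 7.85, 10.7 and 10.8 FPKM in control and 8.69, 7.91, 9.23 and 7.64 FPKM in IMQ + NS samples. The ranges overlapped through control replicate 2, and the log2 fold change was -0.20 (95% interval -0.48 to 0.08, adjusted p = 0.185). Arnt, which is also the partner of hypoxia-inducible factors, averaged 16.6 ± 1.05 and 14.9 ± 0.50 FPKM, a log2 fold change of -0.15 (95% interval -0.32 to 0.02, adjusted p = 0.114). Ahrr, which competes with AHR for ARNT, averaged 1.15 ± 0.24 and 0.777 ± 0.18 FPKM, with a log2 fold change of -0.51 (95% interval -0.99 to -0.04, adjusted p = 0.0642). Whether these 3 genes passed the test depended on control replicate 2 and on the scaling. Without that sample Ahr (-0.30, adjusted p = 0.0177), Arnt (-0.19, adjusted p = 0.0155) and Ahrr (-0.61, adjusted p = 0.0297) were all called lower, which brought the members called to 5. The same 3 passed when all samples were rescaled to equal FPKM sums, which moved the median of all genes from 0.05 to -0.07, with Ahr at -0.33, Arnt at -0.28 and Ahrr at -0.64. Arnt also passed with quantile normalization (-0.30, adjusted p = 0.026).

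Tiparp, a mono-ADP-ribosyltransferase that marks AHR for degradation, was at 7.04 ± 0.49 FPKM in control and 6.88 ± 0.60 FPKM in IMQ + NS samples (SD, n = 4). The log2 fold change was -0.03, with a 95% interval from -0.26 to 0.19, and -0.01 without control replicate 2. Nqo1, a quinone reductase, averaged 4.73 ± 1.02 and 6.59 ± 1.56 FPKM, with overlapping samples and a log2 fold change of 0.46 (95% interval 0.01 to 0.91, adjusted p = 0.0751). It was called higher in 2 of the 8 fits that left out a sample, those without control replicate 1 (0.60, adjusted p = 0.0336) or IMQ + NS replicate 1 (0.58, adjusted p = 0.0423).

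The second comparison asked whether BZLF on lesions changed these genes relative to saline on lesions. No member was called higher in IMQ + BZLF samples by limma, and none had a rise at an unadjusted p below 0.05. Nqo1 was called lower, 1 of the 7 members, against 5.17% of all tested genes called lower and 1.28% called higher. At an unadjusted p below 0.05, 3 members were lower, Nqo1, Tiparp and Ahr, against 2258 of the 15288 tested genes lower and 1217 higher. In each of these 3 genes every IMQ + BZLF sample lay below every IMQ + NS sample. They were picked by their p from the same samples, so this lack of overlap adds no support to it. The share of all tested genes without overlap was not computed. The median log2 fold change of the members was -0.30, against -0.02 over all genes tested.

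Nqo1 had 4.99, 7.14, 8.50 and 5.71 FPKM in the 4 IMQ + NS samples. In the IMQ + BZLF samples it had 2.51, 3.64, 3.22 and 4.51 FPKM. The groups did not overlap, and the mean fell from 6.59 ± 1.56 to 3.47 ± 0.84 FPKM (SD, n = 4). The log2 fold change was -0.91 (standard error 0.20, adjusted p = 0.0338 from limma), and the 95% interval ran from -1.37 to -0.45. The call was a narrow one. Leaving out 1 sample gave log2 fold changes from -1.04 to -0.77, and the call was kept in 2 of 8 such fits. The call did not hold when IMQ + NS replicate 2, 3 or 4 or IMQ + BZLF replicate 1, 2 or 3 was taken out, and the adjusted p over all alternatives ranged from 0.0253 to 0.0859.

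Tiparp had 6.83, 7.46, 7.18 and 6.07 FPKM after saline and 5.28, 5.96, 5.97 and 5.59 FPKM after BZLF. The lowest saline sample was just above the highest BZLF sample. The log2 fold change was -0.26 (standard error 0.08, adjusted p = 0.0946). Ahr had 4.75, 6.85, 6.35 and 7.43 FPKM after BZLF, all below the 7.64 FPKM of the lowest saline sample. Its log2 fold change was -0.41 (standard error 0.13, adjusted p = 0.109). Neither passed the test in any of the 8 fits that left out a sample.

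The canonical readouts of the receptor gave no call in either direction. Cyp1a1 had 1.85, 4.45, 3.25 and 3.27 FPKM after BZLF, a range that overlapped the saline samples. The log2 fold change was -0.30 with a 95% interval from -0.95 to 0.35 (adjusted p = 0.588). Cyp1b1 had 12.5, 18.2, 13.3 and 17.3 FPKM after BZLF, with a log2 fold change of 0.21 and a 95% interval from -0.15 to 0.57 (adjusted p = 0.476). It was 0.08 when the second IMQ + NS sample was left out and 0.12 when the second IMQ + BZLF sample was. Ahrr had 0.187, 0.548, 0.564 and 0.699 FPKM after BZLF against 0.914, 0.874, 0.806 and 0.516 FPKM after saline, with 1 saline sample inside the BZLF range. Its log2 fold change was -0.62, with a wide 95% interval from -1.34 to 0.10 (adjusted p = 0.286). Arnt averaged 15.1 ± 0.20 FPKM after BZLF, and its log2 fold change of 0.01 had a 95% interval from -0.09 to 0.12. In the IMQ + BZLF group, replicate 1 was the lowest for Ahr, Ahrr, Cyp1a1, Cyp1b1, Tiparp and Nqo1. Without it the log2 fold change was -0.30 for Ahrr and -0.06 for Cyp1a1. Leaving out a saline sample put Cyp1a1 at -0.14 (replicate 1) or -0.50 (replicate 3), leaving out BZLF replicate 2 put it at -0.47, and none of these was called.

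The RNA levels of cell type markers also differed between the 2 lesion groups, and here too fewer cells and less RNA per cell cannot be told apart. The summed level of 6 neutrophil genes was 3121 to 9869 FPKM after saline and 61.7 to 82.5 FPKM after BZLF, and all 6 genes were called lower. Of 7 basal keratinocyte genes 5 were called lower after BZLF, with summed levels of 1684 to 2362 FPKM against 3387 to 5476 FPKM. Of 6 macrophage genes 2 were called lower and none higher, with summed levels of 305 to 451 FPKM against 464 to 658 FPKM. In the fibroblast list 1 gene was called higher, and in the Langerhans and dendritic cell list 1 lower. The part of these changes in the results for Nqo1, Tiparp and Ahr was not tested.

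**Figure D3:**
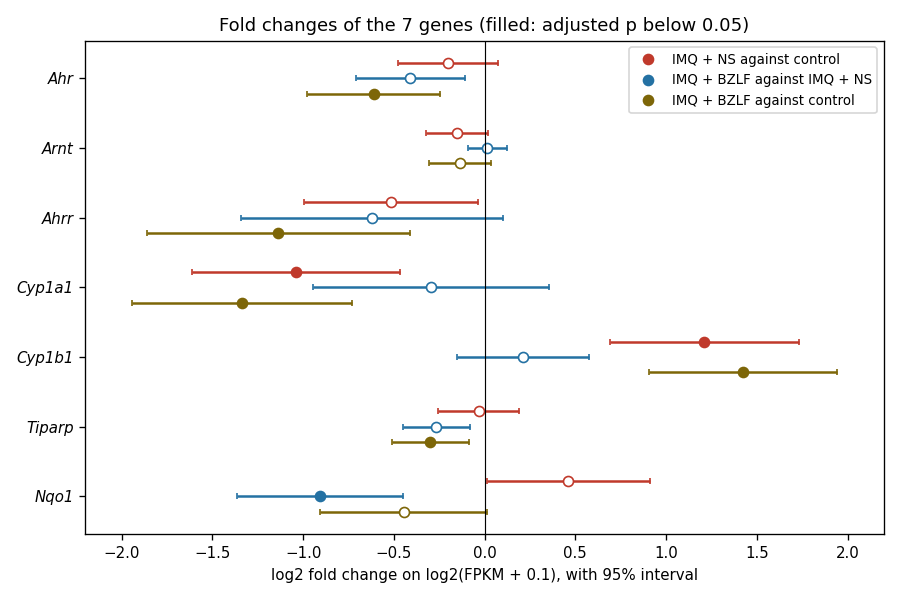
Log2 fold change on log2(FPKM + 0.1) (x axis) of the 7 genes (y axis) in the 3 comparisons, with 95% intervals from limma. Filled points had an adjusted p below 0.05: Cyp1a1 and Cyp1b1 in IMQ + NS against control, Nqo1 in IMQ + BZLF against IMQ + NS, and Ahr, Ahrr, Cyp1a1, Cyp1b1 and Tiparp in IMQ + BZLF against control.

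The third comparison set BZLF-treated lesions against normal skin. Here 4 of the 7 members were called lower (Ahr, Ahrr, Cyp1a1 and Tiparp) and 1 higher (Cyp1b1), against 29.2% of all tested genes called lower and 23.8% called higher. These samples share their controls with the first comparison and their BZLF samples with the second, so the 3 sets of values are not independent. The median log2 fold change was -0.45 over the members and -0.02 over all genes tested.

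Ahr averaged 6.34 ± 1.15 FPKM after BZLF against 9.69 ± 1.37 FPKM in control skin (SD, n = 4), without overlap, and differed by -0.61 on the log2 scale (standard error 0.16, adjusted p = 0.0122). Ahrr averaged 0.499 ± 0.219 against 1.15 ± 0.24 FPKM, or -1.14 on the log2 scale (standard error 0.32, adjusted p = 0.0162), again without overlap. Its value depended on the constant in the logarithm and was -1.31 with 0.01 and -0.52 with 1, called in both. The fall of Cyp1a1 was -1.34 (standard error 0.27, adjusted p = 0.00337) and the rise of Cyp1b1 was 1.42 (standard error 0.23, adjusted p = 0.00118), or 1.65 without control replicate 2. These 4 genes were called in all 8 fits that left out a sample. Tiparp, with -0.30 (standard error 0.09, adjusted p = 0.0247), was called in 5 of them, and not without control replicate 1, IMQ + BZLF replicate 1 or IMQ + BZLF replicate 4. Nqo1 stood at -0.45 (95% interval -0.91 to 0.02, adjusted p = 0.093) and Arnt at -0.14 (95% interval -0.31 to 0.03, adjusted p = 0.152). Without control replicate 2 both were called lower, Nqo1 at -0.53 (adjusted p = 0.0468) and Arnt at -0.18 (adjusted p = 0.0253), and Nqo1 also without IMQ + BZLF replicate 4 (-0.58, adjusted p = 0.0441). Arnt was also called with equal FPKM sums (-0.24, adjusted p = 0.0279).

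Across the groups the members therefore followed different orders. The mean of Cyp1a1 fell from control over IMQ + NS to IMQ + BZLF samples, with only the step from control to lesion larger than the spread. Cyp1b1 rose in the same order, and again the last step did not pass the test. Ahr and Ahrr also fell in that order, and neither single step passed the test, while the difference between the ends did. For Nqo1 the order was IMQ + NS, control and IMQ + BZLF, and only the difference between the ends passed. Langerhans and dendritic cells are a known site of AHR and AHRR expression in skin, and the summed level of 6 of their genes was 40.7 to 70.9 FPKM in control, 12.8 to 18.5 FPKM in IMQ + NS and at most 19.3 FPKM in IMQ + BZLF samples. Of these 6 genes 4 were called lower and 1 higher in IMQ + NS against control samples. Their median sum was 16.8 FPKM after saline and 17.9 FPKM after BZLF. In IMQ + NS against control samples 6 of 7 fibroblast, 5 of 6 endothelial and 5 of 6 macrophage genes were also called lower, and 1 macrophage gene higher. The part of any of these cell types in the values of Ahr and Ahrr was not tested.

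Among themselves the members were correlated to different degrees over the 12 samples. On the log2 scale Ahr and Ahrr had a Pearson r of 0.94, Ahrr and Cyp1a1 0.84, and Ahr and Cyp1a1 0.78. Cyp1b1 had a negative r with each of the other 6, from -0.80 with Arnt and -0.76 with Cyp1a1 to -0.11 with Nqo1. Nqo1 was nearest to Tiparp (r = 0.69) and had an r of only 0.12 with Cyp1a1. Tiparp itself was nearest to Ahrr (r = 0.74). These are descriptions over samples that include the differences between groups.

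The tested genes whose pattern over the 12 samples was most like that of a member were named by the highest r. For Ahr these were Gab2 (0.99), Gas1 (0.98) and Irx5 (0.96), and 2 of the 3 recurred for Ahrr, with Slitrk6 (0.97), Irx5 (0.96) and Gab2 (0.96). For Cyp1a1 they were Rdh1 (0.98), Elovl4 (0.98), which elongates very long chain fatty acids, and Dgat2l6 (0.97), which is also a gene of the sebaceous list. For Cyp1b1 they were Efna5 (0.98), Palld (0.98) and Agrn (0.97). Arnt was closest to Os9 (0.97), Cyp2e1 (0.96) and Fgf2 (0.96), Tiparp to Gdi2 (0.93), Maoa (0.92) and Map3k3 (0.91), and Nqo1 to Tifab (0.94), Skap2 (0.94) and Adam8 (0.94). The points share the contrast of lesion and normal skin, which many genes follow.

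The other genes of the pathway were taken from 7 lists written from general knowledge, ordered here from the cytosolic complex to the targets. Their counts stand beside the shares of all tested genes called, which were 29.0% higher and 27.1% lower for lesions with saline against control. For BZLF against saline on lesions the shares were 1.28% and 5.17%, and for lesions with BZLF against control 23.8% and 29.2%. At an unadjusted p below 0.05, 4965 of the 15288 tested genes were higher and 4456 lower in lesions with saline against control. For BZLF against saline on lesions these counts were 1217 and 2258. No test set a list against other genes. Leaving out control replicate 2 ended no call of a gene named from the lists, and the values it moved most are given. Of 6 chaperone and complex genes 3 were called higher and 2 lower in IMQ + NS against control samples. Stub1, a ubiquitin ligase of chaperone clients, fell by 0.24 on the log2 scale (adjusted p = 0.00761). Hsp90aa1, the inducible HSP90, rose by 0.64 (adjusted p = 0.0433), with samples that overlapped only through the 81.9 FPKM of control replicate 2, and by 0.89 without it (adjusted p = 0.000106). The kinase Src rose by 0.59 (adjusted p = 0.00567). After BZLF none of the 6 was called, and none had an unadjusted p below 0.05, with log2 fold changes between -0.10 and 0.05.

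Relatives of AHR and ARNT in the bHLH-PAS family had a row for 13 genes, of which 11 were tested. In lesions 1 was called higher and 2 lower. Hif1a, the hypoxia factor that also uses ARNT, rose from 22.1 ± 4.72 to 45.5 ± 8.11 FPKM, a log2 fold change of 1.04 (adjusted p = 0.000893). Clock, a circadian activator, fell by 0.57 (adjusted p = 0.00284). After BZLF none of the 11 was called, although 2 were higher and 3 lower at an unadjusted p below 0.05. Against control skin, IMQ + BZLF samples had Clock at -0.68 (adjusted p = 0.00173), the endothelial hypoxia factor Epas1 at -0.67 (adjusted p = 0.0105, and -0.83 without control replicate 2) and Hif1a at 0.58 (adjusted p = 0.0083). In lesions with saline Epas1 did not pass the test (-0.31, adjusted p = 0.105), but was called lower without control replicate 2 (-0.46, adjusted p = 0.000532), when 4 of the 11 were lower.

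Among coregulators with which AHR and many other factors work, of 10 genes 8 were called higher and none lower in IMQ + NS against control samples, and none was lower at an unadjusted p below 0.05 either. The largest rises were those of the chromatin remodeller Smarca4 (0.90, adjusted p = 0.00455) and of Ncoa2 (0.69, adjusted p = 0.000637), a p160 coactivator. The list's median was 0.48, against 0.05 over all genes tested. In IMQ + BZLF against control samples 8 were again called higher, with Smarca4 at 0.84 and Ncoa2 at 0.74. After BZLF none was called, with 1 higher and 1 lower at an unadjusted p below 0.05.

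Of 20 other genes described as AHR targets, 15 were tested. In lesions 11 were called higher and 1 lower, with a median log2 fold change of 1.22. Several of these genes respond to other signals in skin. Flg, which encodes the barrier protein filaggrin, rose from 1.54 ± 0.36 to 16.6 ± 5.51 FPKM (3.30, adjusted p = 4.73e-05). Ovol1, a transcription factor of keratinocyte differentiation, rose from 7.06 ± 2.81 to 48.6 ± 2.80 FPKM (2.85, adjusted p = 3.46e-05). Aldh3a1, an aldehyde dehydrogenase and a classical member of the AHR gene battery, was lower in lesions. It stood at 41.2, 32.0, 85.3 and 94.9 FPKM in control and at 15.4, 15.1, 9.51 and 8.31 FPKM in IMQ + NS samples, without overlap, a log2 fold change of -2.28 (adjusted p = 0.00105).

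After BZLF 2 of the 15 target genes were called lower and none higher, with 1 higher and 4 lower at an unadjusted p below 0.05. The 1 higher was Aldh3a1, at 12.1 ± 3.69 FPKM after saline and 21.8 ± 7.03 FPKM after BZLF, with overlapping samples (0.84, adjusted p = 0.111). It was not called, nor was Cyp1a1 (-0.30), and the difference between the 2 genes was not tested. Ptgs2, the inducible cyclooxygenase, fell from 2.08 ± 0.68 to 0.834 ± 0.15 FPKM (-1.20, adjusted p = 0.0124). Ugt1a7c, a glucuronosyltransferase of the Ugt1a locus, whose members share exons so that reads may be split between them, fell from 3.35 ± 0.61 to 1.99 ± 0.19 FPKM (-0.71, adjusted p = 0.0152). Both groups of values were without overlap. Against control skin, IMQ + BZLF samples had 9 of the 15 called higher and 3 lower, with Flg at 3.37, Ovol1 at 2.95, Aldh3a1 at -1.45 and Gsta2, a glutathione transferase, at -1.03. The lowest control value of Gsta2 was that of replicate 2, at 1.73 FPKM. Without that sample Gsta2 was at -1.44 after BZLF, and in lesions with saline it went from -0.72 (adjusted p = 0.126) to -1.13 (adjusted p = 0.000249).

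Enzymes that make and break tryptophan metabolites, a source of natural AHR ligands, were tested for 9 of 12 genes. In lesions 2 were called higher and 2 lower. Tdo2, which opens the indole ring of tryptophan, fell from 5.38 ± 3.51 to 0.411 ± 0.17 FPKM (-3.21, adjusted p = 0.000917), and Kmo, a hydroxylase of kynurenine, fell from 2.74 ± 0.54 to 1.02 ± 0.17 FPKM (-1.34, adjusted p = 0.000364). Kyat1, a kynurenine aminotransferase, rose from 7.99 ± 2.07 to 19.6 ± 2.79 FPKM (1.30, adjusted p = 0.000422). None was called after BZLF, with 1 lower at an unadjusted p below 0.05.

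NRF2 and its targets were set beside Nqo1, since both factors induce that gene. Of 15 genes 7 were called higher and 4 lower in IMQ + NS against control samples. The cystine carrier Slc7a11 rose from 0.102 ± 0.072 to 6.48 ± 2.05 FPKM, a log2 fold change of 5.04 that the added constant understates (adjusted p = 3.07e-06), and Gclc, of glutathione synthesis, rose from 9.78 ± 3.55 to 29.8 ± 1.82 FPKM (1.65, adjusted p = 0.000232). Gstm1 (-1.51, adjusted p = 9.94e-05) and the malic enzyme Me1 (-0.94, adjusted p = 0.000329) fell. After BZLF, where Nqo1 fell, 1 of the 15 was called higher and none lower. That gene was Me1, with 51.4 ± 3.79 FPKM after saline and 63.0 ± 4.41 FPKM after BZLF (0.29, adjusted p = 0.0416). At an unadjusted p below 0.05, 3 were higher and 3 lower. Slc7a11 was among the lower, with 4.89, 5.39, 9.44 and 6.21 FPKM after saline and 4.71, 2.82, 2.91 and 4.07 FPKM after BZLF, without overlap (-0.81, adjusted p = 0.0722). Of the 15 genes 11 had a log2 fold change above 0 and 4 below it, and the median of the list was 0.10. Nfe2l2, which encodes NRF2, was at 38.6 ± 4.62 and 31.2 ± 2.36 FPKM, a log2 fold change of -0.30 (adjusted p = 0.0867).

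The relatives of Tiparp among the mono-ADP-ribosyltransferases were also measured. Of 9 genes 6 were called lower in IMQ + NS samples and none higher, with none higher at an unadjusted p below 0.05, and the median was -0.52. Parp3 fell from 9.89 ± 1.01 to 4.71 ± 0.68 FPKM (-1.06, adjusted p = 0.000175) and Parp10 from 9.18 ± 1.31 to 5.38 ± 1.02 FPKM (-0.77, adjusted p = 0.00305). After BZLF none of the 9 was called, with 1 lower at an unadjusted p below 0.05, and the median was -0.02. The difference between Tiparp and its relatives was not tested.

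**Figure D4:**
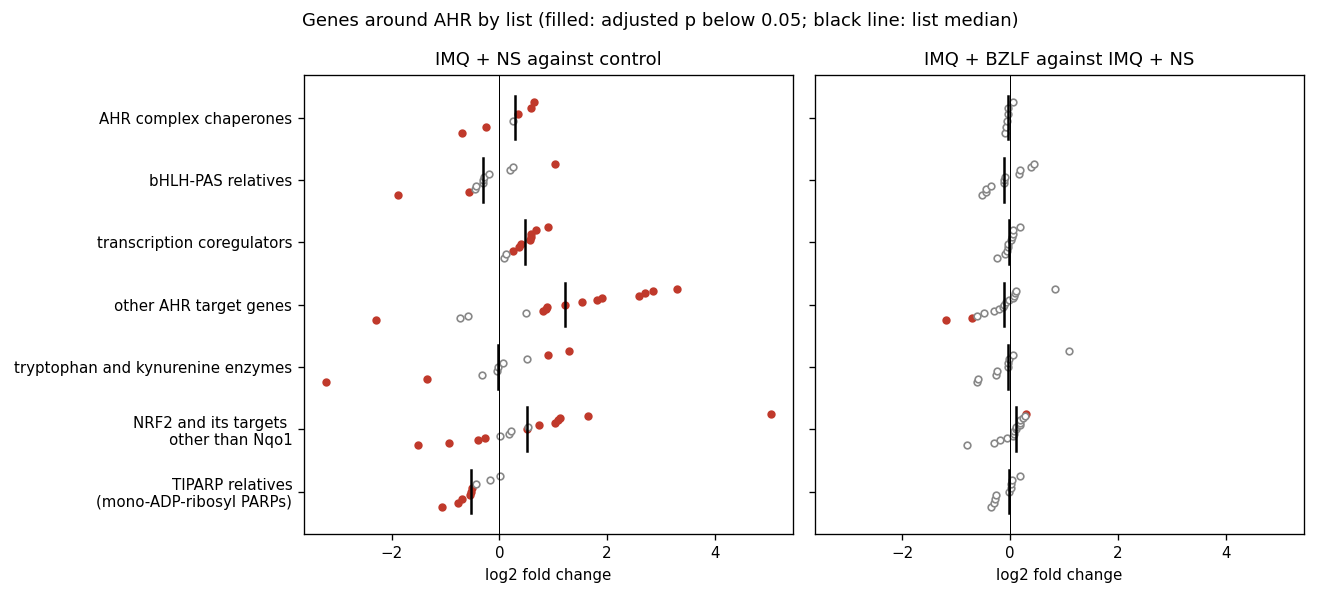
Log2 fold change (x axis) of each tested gene in the 7 lists (y axis) for IMQ + NS against control (left) and IMQ + BZLF against IMQ + NS samples (right), on the same scale. Filled points had an adjusted p below 0.05, open points did not, and black lines are list medians. The left panel holds many filled points in both directions, and the right panel 3, which are Ptgs2, Ugt1a7c and Me1.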

How the data were processed

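RNA-seq of 12 back skin samples was analysed, 4 in each of 3 groups. The authors deposited FPKM values, 1 per gene and sample, not logged and not pooled. In their methods the reads were aligned with Bowtie2 to mRNA and lncRNA transcripts and quantified with eXpress, whereas the submitters' processing notes list fastp, HISAT2, HTSeq, R 3.2.0 and mm10. The annotation was not given in the sources used here. Extraction and library kits also differ between methods and labels.

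Because FPKM values are not counts, limma 3.58.1 in R 4.3.3 was used on log2(FPKM + 0.1), with a trend, separately for each pair of groups, on the 15288 genes that averaged 0.1 FPKM or more across all 12 samples. The constant understates changes of low genes. P-values were adjusted over all genes tested by the Benjamini-Hochberg method. The fit was tested on simulated data. Values were described with pandas 2.3.3 and matplotlib 3.10.9 under Python 3.11.15. Of the symbols, 18369 were found in RefSeq, and 0 were duplicated. No sample was left out. The sources used here do not tie each sample to a separate mouse, so p-values measure only the spread between these samples, which may be technical.

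The members and lists were chosen with earlier results of these data known. Genes of the lists were named by rule: those called in IMQ + BZLF against IMQ + NS samples (none of the lists held over 4), and the 2 largest rises and falls with a mean of at least 1 FPKM in the other comparisons. The 3 genes most like each member over the samples were also named. Nfe2l2 was named outside the rule after its values were seen. The values of Slc7a11 and Aldh3a1 in IMQ + BZLF against IMQ + NS samples were also given outside it, since neither was called there. A gene that the rule names is not reported here. Alternatives were other constants, filters, scalings and variance models, a fit of all 12 samples, a replicate block, a limit on the fold change, and leaving out each sample.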

Additional observations from a re-analysis of the deposited data

Results flagged for a closer look

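Of the 21 sets of 4 samples (7 genes in 3 groups) that were examined for a sample far from the rest, 1 stood out, about the 1 in 20 that chance gives. It was Cyp1b1 in control replicate 2, at 8.94 FPKM against 4.50, 4.99 and 4.81 FPKM in the other controls. Its gap to the nearest sample was 0.889 of the range of the group, above Dixon's limit for 4 samples. The same sample had the highest summed level of hair shaft genes among the controls (310 FPKM). It had the lowest control sums of fibroblast (10313 FPKM), endothelial (79.9 FPKM), skeletal muscle (3259 FPKM) and Langerhans and dendritic cell genes (40.7 FPKM). Its suprabasal keratinocyte, sebaceous gland, macrophage, T cell and adipocyte sums were also the lowest, but not its basal keratinocyte, neutrophil and liver sums. The part of these differences in the Cyp1b1 value was not tested. Without this sample the rise of Cyp1b1 in IMQ + NS against control samples was 1.43 on the log2 scale, against 1.21 with it.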

How the results depend on the processing

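Of 438 values of single members under the alternatives, 406 kept their direction and their side of the threshold, 13 passed it newly, 18 no longer passed it and 1 changed sign, that of Tiparp in IMQ + NS against control samples, which became 0.0251 without IMQ + NS replicate 4 (range without 1 sample -0.0730 to 0.0251). In the fits that left out 1 sample, the members called numbered 2 to 5 in IMQ + NS against control, 0 to 1 in IMQ + BZLF against IMQ + NS and 4 to 7 in IMQ + BZLF against control samples, and the genes called in the pathway lists 44 to 55, 2 to 6 and 43 to 57. With samples rescaled to equal sums, 5 members were called in IMQ + NS against control samples. This scaling also moved the median of all genes from 0.05 to -0.07, and in IMQ + BZLF against control samples from -0.02 to -0.12. In IMQ + BZLF against IMQ + NS samples 0 members were called with no filter on low values (Nqo1, adjusted p = 0.0726) or without a trend (adjusted p = 0.0551), and the range over all alternatives of that value was 0.0253 to 0.0859. With a limit of 2 on the fold change, whether on adjusted or on unadjusted p, the members called were 2, 0 and 3 in the order above and the list genes 21, 1 and 22, against 49, 3 and 52. Ahrr was not tested at a mean of at least 1 FPKM. Median ratio scaling moved 1 group mean by more than its SD, that of Arnt in IMQ + BZLF samples, from 15.1 to 15.3 FPKM. The replicate numbers of the groups were checked for pairing: in 12 same-numbered pairs the correlation of deviations from the group means ran from -0.152 to 0.26 and passed 0.1 in 6, which were all pairs numbered 3 or 4 and none numbered 1 or 2, against 6 of 36 differently numbered pairs. Since not every pair passed 0.1, the numbers were not taken as pairing the samples. A link among the samples numbered 3 or 4 was not tested. With a replicate block the members called were 2, 1 and 4, Tiparp in IMQ + BZLF against control samples (-0.30, adjusted p = 0.0937) being the 1 no longer called. The paper gives the amount of clean data per sample as a range, but not the number of fragments. The counting error of Ahrr, the lowest member, was not computed.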

Other observations

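Several genes of the pathway lists stood too low to be tested. Cyp1a2, the liver relative of Cyp1a1, was listed at 0 in 10 of the 12 samples and at 0.0131 and 0.0138 FPKM in the others. Il22, a cytokine of AHR-dependent T cells that acts on keratinocytes, had 0.195, 0.336, 0.0177 and 0.320 FPKM in the IMQ + NS samples. It was listed at 0 in 3 of 4 control and 3 of 4 IMQ + BZLF samples, with 0.0730 and 0.0723 FPKM in the others. Ido1, which starts the kynurenine pathway, stayed at or below 0.129 FPKM in every sample. These 3 genes were named after their values were seen, and their differences were not tested.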
